A study of Homo sapiens with 16 samples.

Results

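The secondary and tertiary granule genes are 10 genes whose proteins neutrophils pack into granules or carry on their surface late in maturation. They are *LTF*, *CAMP*, *LCN2*, *CEACAM8*, *MMP8*, *MMP9*, *PGLYRP1*, *OLFM4*, *CRISP3* and *BPI*. They were chosen by name, each matched 1 row in every file, and they make up 10 of the 60623 genes listed. RNA-Seq was performed on MUTZ-3, an AML cell line with inv(3) in which an inverted chromosome places the oncogene *EVI1* (gene symbol *MECOM*) under a distal enhancer. The study asked what inhibition of the DNA repair enzyme PARP1, or lower *EVI1*, does to these cells.

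The PARPi experiment consists of 10 libraries. One is of untreated cells harvested at 0 h, and the others are of cells that received either vehicle (DMSO), olaparib at 10 µM or talazoparib at 1 µM and were harvested after 12, 24 and 48 h. The knockdown experiment consists of 6 libraries, taken on day 3 and day 6 from cells that carried a non-targeting control shRNA (NTC) or 1 of 2 shRNAs against *EVI1*, named shEVI1-2531 and shEVI1-2532. All knockdown cells, NTC included, carried a lentiviral pLKO.1 vector and had been selected with puromycin, and all cells of both experiments grew with GM-CSF and medium conditioned by another cell line. Each condition has 1 library of this single cell line.

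Neutrophils make their granules in waves. Primary granules form first, at the promyelocyte stage, then secondary (specific) granules with lactoferrin and cathelicidin, then tertiary (gelatinase) granules with *MMP9*. The genes of the later waves depend on the transcription factor *CEBPE*, and leukemic blasts usually express them poorly. *BPI* is by textbook a protein of primary granules although its mRNA is made late, and *MMP9* and *CAMP* are also expressed by monocytes.

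The line carried the myeloid genes *CD33*, at 79.1 to 168 CPM (counts scaled to the library total), and *MPO*, at 513 to 5097 CPM, while the hemoglobin gene *HBB* stayed at or under 10 counts in each library. The T cell gene *CD3E* was detected at 1.14 to 9.27 CPM. *EVI1* (*MECOM*) fell from 42.4 CPM in NTC to 12.3 with shEVI1-2531 and 4.51 with shEVI1-2532 at day 3, and from 44.2 to 18.5 and 4.03 CPM at day 6. Total counts ranged from 55999673 to 72681943 per library after PARPi and from 95523038 to 120716213 after knockdown, so that 3 counts, taken as the smallest level a library can show, correspond to 0.0249 to 0.0536 CPM.

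The members sit on 7 chromosomes (GRCh38 coordinates as the files give them). *LTF* lies on chromosome 3 from 46435645 to 46485234, minus strand, and *CAMP* on the same chromosome from 48223347 to 48225491, plus strand. *BPI* spans 38304123 to 38337505 and *MMP9* spans 46008908 to 46016561 on the plus strand of chromosome 20. *CEACAM8* (42580243 to 42595055) and *PGLYRP1* (46019153 to 46023053) share the minus strand of chromosome 19. *CRISP3* is found on chromosome 6 from 49727384 to 49744437, minus strand, *LCN2* on chromosome 9 from 128149071 to 128153453, plus strand, *MMP8* on chromosome 11 from 102711796 to 102727050, minus strand, and *OLFM4* on chromosome 13 from 53028813 to 53052057, plus strand. *MMP9*, *BPI*, *PGLYRP1*, *CRISP3* and *CEACAM8* overlap genes of the opposite strand. The sources do not say if reads were counted by strand. For *PGLYRP1* the overlapping gene *CCDC61* had 448 to 1667 counts, far above the member itself, whereas the partner of *MMP9*, *SLC12A5-AS1*, had 1 to 28 and that of *CRISP3*, *AL121974.1*, had 0 or 1. *LIPE-AS1*, which overlaps *CEACAM8*, had 50 to 359 counts against 0 to 13 for the member, and *AL359555.1*, which overlaps *BPI*, had 49 to 363, far below *BPI* itself.

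RefSeq promoter windows (GRCh38.p14) were at hand for 7 of the 10 members, with 9 windows in all since *LTF* has several starts. *MMP9*, *BPI* and *PGLYRP1* had no entry. The motif TTNNGNAA, a core of C/EBP sites, occurred on either strand in 5 of the 9 windows of 250 bases before the start, and in 33.2% of all 35116 windows of that length. GAGGAA, a core of PU.1 sites, occurred in 6 of 9 against 23.6%. As *LTF* supplied several windows, these are not independent. By gene, 4 of the 7 members had TTNNGNAA in a window and 4 had GAGGAA, and a share by gene over all genes was not computed. Some windows, of *LTF*, *LCN2* and *MMP8*, lie inside the gene span that the files give. Those of *CAMP*, *CRISP3* and *CEACAM8* run into it in part. Shown are the stretches before the annotated gene start of *CAMP*, whose PARPi effect changed with time, and of *CRISP3*, whose counts in the shEVI1-2531 libraries stood apart from all others. Capitals mark bases within a match of either motif on either strand, and matches may overlap.
*CAMP*, chr3:48223245-48223346, plus strand: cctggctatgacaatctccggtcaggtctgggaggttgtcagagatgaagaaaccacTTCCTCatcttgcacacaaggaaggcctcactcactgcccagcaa
*CRISP3*, chr6:49744438-49744638, minus strand: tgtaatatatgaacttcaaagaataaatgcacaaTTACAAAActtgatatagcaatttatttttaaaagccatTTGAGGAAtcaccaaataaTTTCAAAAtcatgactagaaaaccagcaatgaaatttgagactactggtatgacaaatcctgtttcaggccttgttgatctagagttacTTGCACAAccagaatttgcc
The *CAMP* stretch of 102 bases held 1 GAGGAA match, here read on the opposite strand, and 0 of TTNNGNAA. The *CRISP3* stretch of 201 bases held 4 matches of TTNNGNAA and 1 of GAGGAA, which lies within one of the former. A match of letters is a description and shows no bound factor.

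Over all 16 libraries the members divided sharply by level. *BPI*, *MMP9* and *CAMP* had at least 10 counts in each library and made up 99.4% to 99.96% of the members' summed counts. The other 7 genes had medians from 0 to 5 counts. *MMP8* and *OLFM4* stayed under 10 counts in all 16 libraries, *LCN2* in 15, *CEACAM8* and *CRISP3* in 14, and *LTF* and *PGLYRP1* in 13. Per kb of exon, the median levels were 25.4 CPM for *BPI*, 6.62 for *MMP9* and 1.43 for *CAMP*. Next came *PGLYRP1* at 0.0927 CPM per kb, and the remaining 6 genes had medians of 0.0123 CPM per kb or less, a range in which a few counts decide the order.

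**Figure D1:**
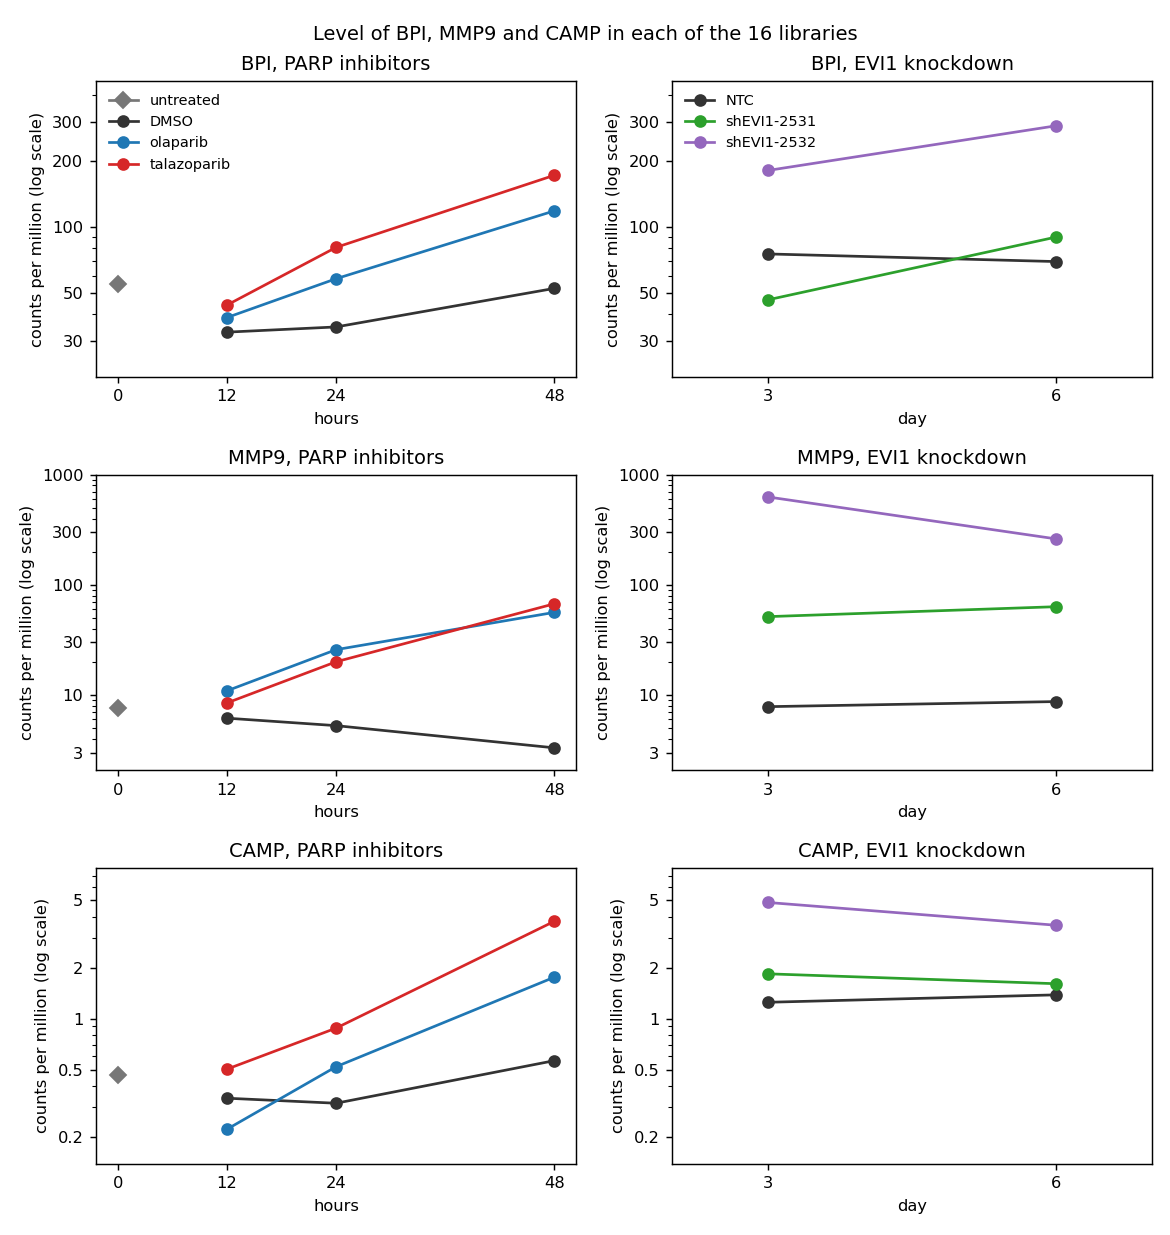
Level of BPI, MMP9 and CAMP in CPM on a log axis (whose range differs between genes) against hours of treatment on the left and day after knockdown on the right, with 1 point per library and lines joining the libraries of a treatment. At 48 h both inhibitors lie above DMSO for the 3 genes, and shEVI1-2532 lies above NTC and shEVI1-2531 at both days.

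*BPI*, which encodes a protein that kills Gram-negative bacteria by binding their lipopolysaccharide, was the most abundant member. It stood at 55.0 CPM in untreated cells and at 33.1, 34.9 and 52.4 CPM with DMSO at 12, 24 and 48 h. Olaparib libraries held 38.6, 58.0 and 118 CPM at the same times, and talazoparib libraries 44.0, 80.7 and 172 CPM. Each inhibitor library was thus above the DMSO library of its hour, but only those of 24 and 48 h exceeded every DMSO library. Against DMSO of the same hour, and after TMM scaling, the log2 ratio was 0.24, 0.71 and 1.36 for olaparib and 0.42, 1.24 and 1.98 for talazoparib. At 48 h these are 2.57-fold (95% interval of the log2 ratio 1.30 to 1.42) and 3.94-fold (1.92 to 2.04), where the interval covers counting error only.

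*MMP9*, the gelatinase that degrades collagen of basement membranes, ranged widely. DMSO libraries held 6.16, 5.27 and 3.31 CPM at 12, 24 and 48 h and untreated cells 7.56 CPM. With olaparib the levels were 10.9, 25.8 and 56.3 CPM, and with talazoparib 8.47, 20.0 and 67.4 CPM. The inhibitor libraries lay above all DMSO libraries at each hour, and the levels with DMSO and with inhibitor moved apart over time. The log2 ratios to DMSO were 0.84, 2.27 and 4.27 for olaparib and 0.47, 1.96 and 4.61 for talazoparib. At 48 h *MMP9* was 19.3-fold higher with olaparib and 24.4-fold higher with talazoparib. The DMSO library of 48 h was itself at 42.7% of the untreated library, and it differed by -0.87 on the log2 scale from the DMSO library of 12 h, so the control level of these ratios was not constant.

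*CAMP*, which encodes the antimicrobial peptide precursor cathelicidin, was present at low levels. It had 32 counts in untreated cells and 22, 23 and 36 with DMSO at 12, 24 and 48 h. The olaparib libraries gave 14, 35 and 106 counts and the talazoparib libraries 36, 51 and 211. Talazoparib at 24 h and both inhibitors at 48 h exceeded each DMSO library, and with olaparib at 12 h the count was the lowest of the series. At 12 h both intervals of the log2 ratio included 0 (-1.67 to 0.44 for olaparib and -0.23 to 1.41 for talazoparib). At 24 h the olaparib interval still did (-0.10 to 1.52), whereas that of talazoparib did not (0.77 to 2.28). At 48 h *CAMP* was 3.54-fold higher with olaparib (log2 interval 1.26 to 2.41), and with talazoparib the log2 interval was 2.49 to 3.55. The inhibitors were given at different doses, 10 and 1 µM, so their values stand side by side and were not tested against each other.

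**Figure D2:**
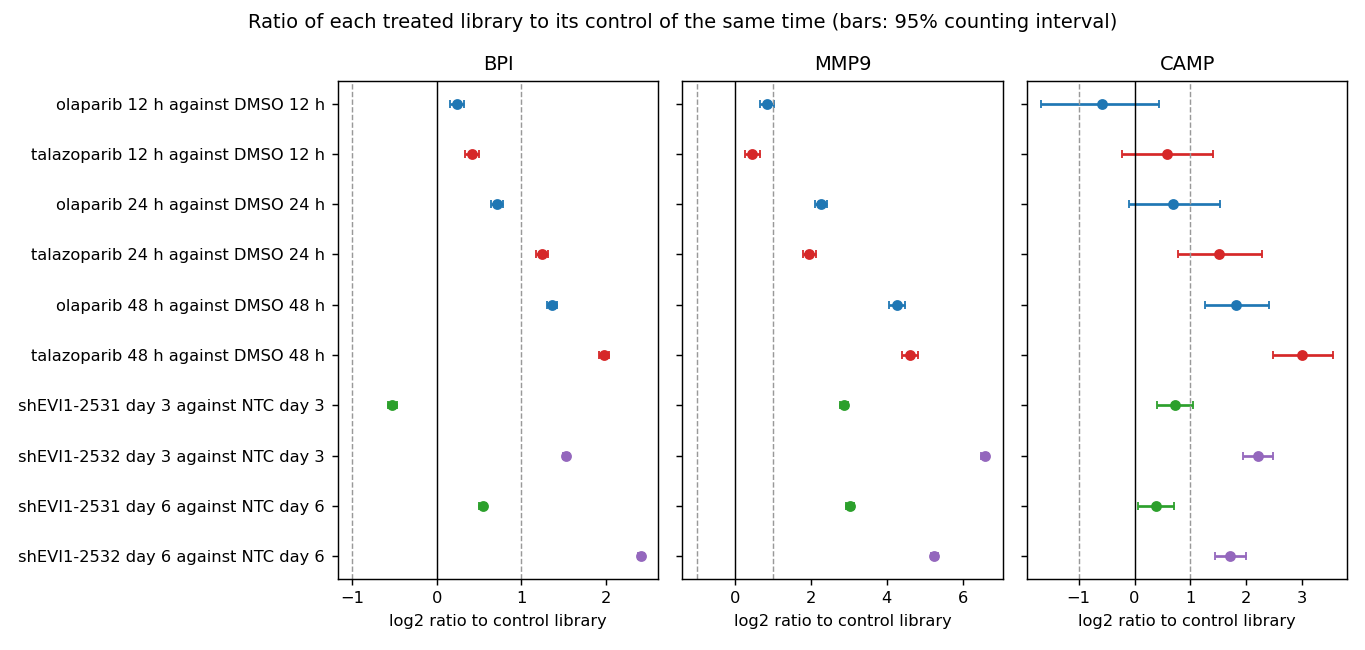
Log2 ratio of the TMM-scaled counts of each inhibitor library to DMSO of the same hour and of each shEVI1 library to NTC of the same day, for BPI, MMP9 and CAMP. Points are single libraries, bars are 95% counting intervals and dashed lines mark 2-fold; the ratios to DMSO were larger at 48 h than at 12 h for both inhibitors, and BPI with shEVI1-2531 at day 3 is the point below 0 whose interval excludes 0.

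Members with at least 10 counts in 1 library of a pair were compared with DMSO. At 12 h, 0 of 3 were more than 2-fold higher with either inhibitor. At 24 h it was 1 of 3 with olaparib and 3 of 3 with talazoparib, and at 48 h 4 of 4 and 5 of 5. None was more than 2-fold lower in these 6 pairs. At 48 h *LTF* with olaparib, and *LCN2* and *CEACAM8* with talazoparib, reached 10 counts only in the inhibitor library. These genes could therefore not have been counted as lower. Of all genes with at least 10 counts in 1 library of the pair, 3.11% were more than 2-fold higher with olaparib at 12 h and 3.82% with talazoparib, 6.53% and 9.27% at 24 h, and 12.9% and 17.8% at 48 h. In these single-library ratios 5 to 7 members had too few counts for a ratio in each pair.

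The scarce members contributed single cases at 48 h. *CEACAM8*, a surface protein stored in specific granules, had 0 counts with DMSO at each hour. With olaparib it had 0, 2 and 7 counts at 12, 24 and 48 h, and with talazoparib 1, 2 and 13. The talazoparib library of 48 h was 5.92-fold above a level of 3 counts in its DMSO library, with counting error left out. The counting interval of its log2 ratio to DMSO began at 2.06 and had no upper limit. The opposite-strand gene *LIPE-AS1* had 76 counts in that DMSO library, 119 with olaparib and 121 with talazoparib at 48 h, and its part in the counts of *CEACAM8* was not tested. *LCN2*, the iron-scavenging lipocalin, had 2, 3 and 1 counts with DMSO, 1, 1 and 7 with olaparib and 2, 1 and 10 with talazoparib, so that only the 48 h libraries stood out. Its ratio at 48 h with talazoparib, 10 against 1 count, has a log2 interval of 0.96 to 9.21. *LTF*, which encodes the iron-binding lactoferrin, had 1, 4 and 2 counts with DMSO, 3, 4 and 12 with olaparib and 4, 5 and 5 with talazoparib. Here the olaparib library of 48 h was the highest, with a log2 interval of 0.68 to 6.05 against its DMSO library.

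The remaining members gave no ratio to DMSO, each being under 10 counts in both libraries of every pair. The peptidoglycan-binding gene *PGLYRP1* had 0, 4 and 5 counts with DMSO, 1, 7 and 5 with olaparib and 3, 0 and 7 with talazoparib, against 15 in untreated cells. *OLFM4*, which marks a subset of neutrophils, had 5, 5 and 6 counts with DMSO, 2, 3 and 5 with olaparib and 5, 3 and 0 with talazoparib. *MMP8*, the neutrophil collagenase, reached at most 2 counts in the PARPi experiment and was at 0 in 7 of its 10 libraries, and the granule glycoprotein gene *CRISP3* reached at most 3. A difference between the groups was not detectable at this depth for these 4 genes.

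**Figure D3:**
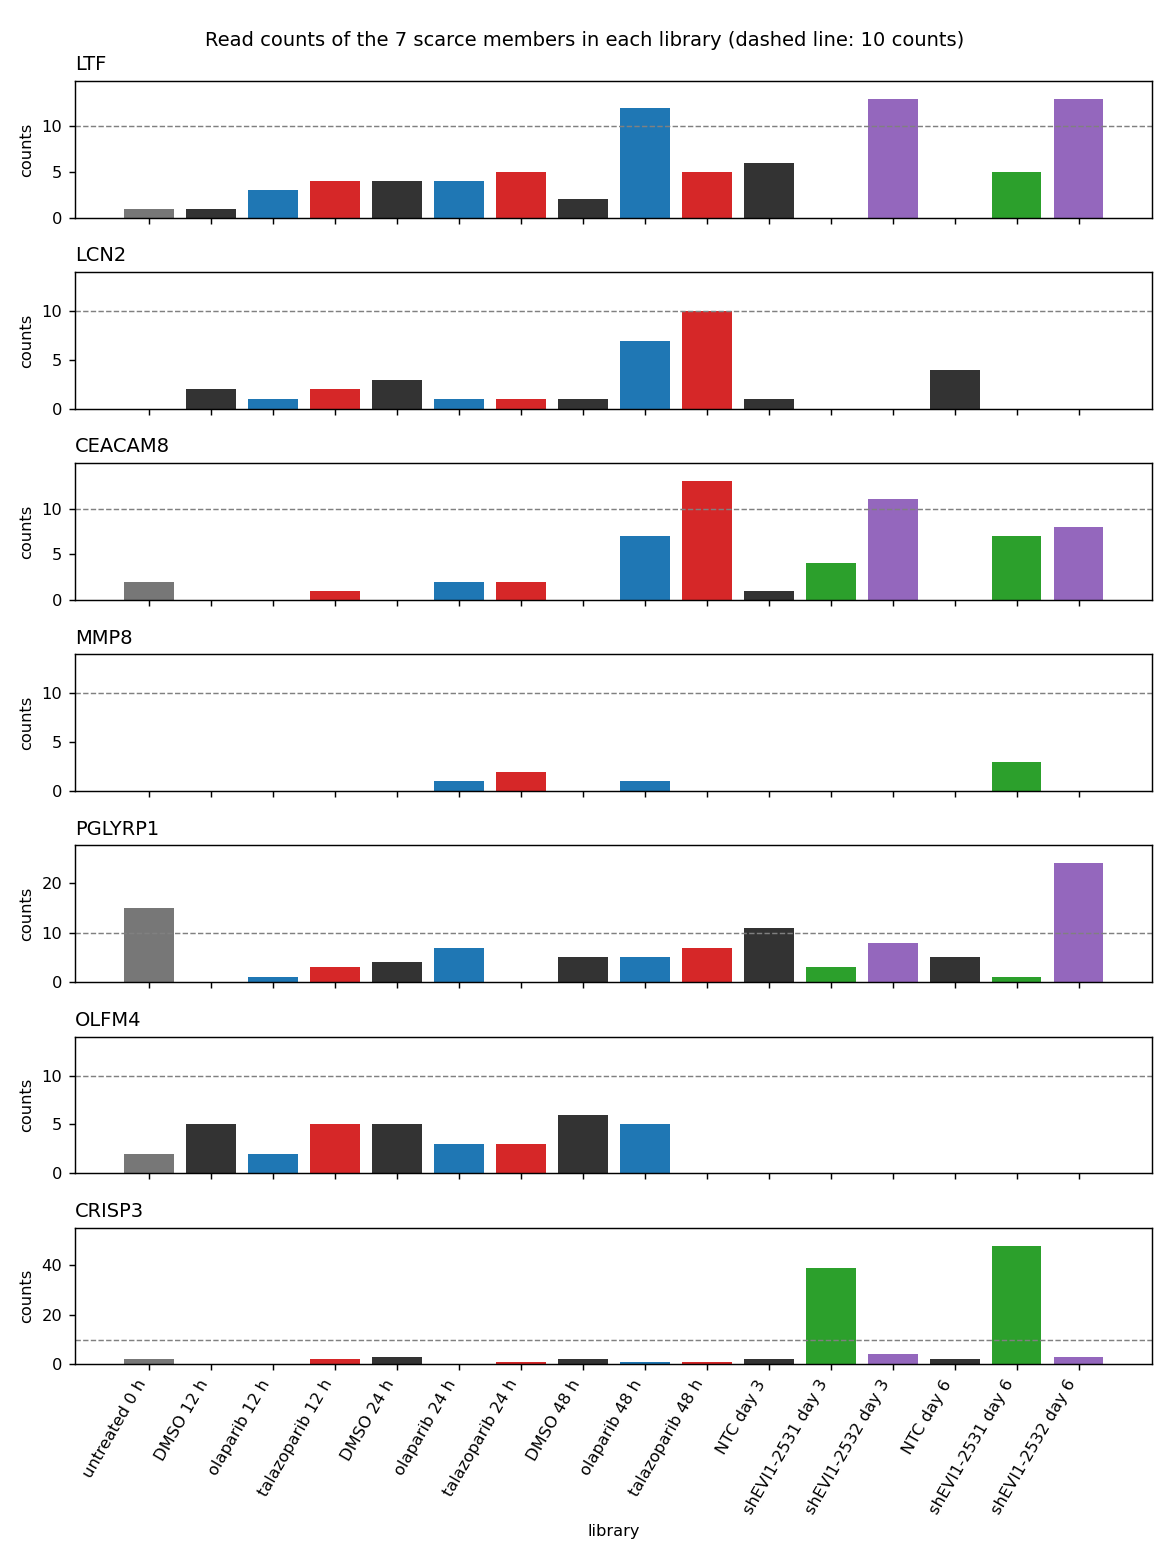
Read counts of the 7 scarce members, 1 panel per gene and 1 bar per library from untreated at 0 h on the left to shEVI1-2532 at day 6 on the right, with bars from 0 and a dashed line at 10 counts. CRISP3 reaches 39 and 48 counts in the shEVI1-2531 libraries and at most 4 elsewhere, while MMP8 and OLFM4 stay under the line in each library.

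In the fit over the 9 DMSO, olaparib and talazoparib libraries, genes needed at least 10 counts in 3 libraries, which *BPI*, *MMP9* and *CAMP* reached and the other 7 members did not. As an average of the hours and of both inhibitors, *BPI* had a log2 fold change of 0.96 ± 0.23 (SE) (adjusted p = 0.0514, edgeR), *MMP9* of 2.14 ± 0.62 (adjusted p = 0.0646, edgeR) and *CAMP* of 1.25 ± 0.41 (adjusted p = 0.0787, edgeR). None of them passed the threshold of 0.05 with edgeR, where 3.16% of all genes tested were called higher. The unadjusted p of 3 of 3 was under 0.05, as it was for 18.1% of all genes in the higher direction, and DESeq2 called 3 of 3 and 10.7% of all genes higher. Olaparib alone gave 0.73 ± 0.25, 2.15 ± 0.66 and 0.74 ± 0.46 for *BPI*, *MMP9* and *CAMP*, with 0 called by edgeR, where 0.639% of all genes were called higher, and 0 by DESeq2, which called 3.4% higher. An unadjusted p under 0.05 was found for 2 of them and, in the higher direction, for 11.5% of all genes. Talazoparib alone gave 1.19 ± 0.25, 2.12 ± 0.68 and 1.77 ± 0.45, and only *BPI* passed (adjusted p = 0.0482, edgeR), with 3% of all genes called higher. These calls depended on the hours used: without the 12 h libraries 3 members were called for the mean effect, 2 for olaparib and 3 for talazoparib, beside 12.4%, 5.09% and 13% of all genes called higher. Without those of 48 h they were 2, 1 and 2, beside 5.06%, 1.83% and 4.77%. Without those of 24 h no gene at all was called in the 3 comparisons by edgeR (6.93%, 3.49% and 8.17% of genes were higher at an unadjusted p under 0.05), so the 0 members called there say nothing about the members. With 1 library per condition, the spread behind these p-values is the departure of hours and inhibitors from an additive fit, and it contains any change of the effect over time.

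That change was tested directly. Per doubling of the time, the inhibitor effect grew by 1.89 ± 0.15 on the log2 scale for *MMP9* (adjusted p = 1.04e-32, edgeR), by 0.67 ± 0.13 for *BPI* (adjusted p = 1.03e-05, edgeR) and by 1.21 ± 0.30 for *CAMP* (adjusted p = 0.000819, edgeR). The slope was thus steepest for the gelatinase gene, by the fitted value, and all 3 members that could be tested were called, with 10% of all genes called higher. This fit left 2 residual degrees of freedom and took its spread from all genes jointly, so these p-values rest on little information about each single gene.

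In the knockdown experiment, *MMP9* rose with both shRNAs. It stood at 7.84 CPM in NTC at day 3 and at 8.72 CPM at day 6. With shEVI1-2531 it reached 51.5 and 63.4 CPM, and with shEVI1-2532 628 and 261 CPM. The 3 constructs did not overlap, and shEVI1-2532 at day 3 was the highest library of the series for this gene. Against NTC of the same day the ratio was 7.38-fold and 8.18-fold with shEVI1-2531, and 95.7-fold and 38.2-fold with shEVI1-2532. Within shEVI1-2532 the level at day 6 was 39.1% of that at day 3 after scaling, whereas NTC (97.9%) and shEVI1-2531 (109%) differed little between the days.

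*BPI* moved in different directions with the shRNAs at day 3. NTC held 75.3 CPM at day 3 and 69.5 at day 6, shEVI1-2531 46.5 and 90.0, and shEVI1-2532 181 and 290 CPM. The shEVI1-2532 libraries lay above NTC at both days, and those of shEVI1-2531 lay on either side of it. The log2 ratio to NTC was -0.53 (95% counting interval -0.58 to -0.48) at day 3 and 0.54 (0.50 to 0.59) at day 6 for shEVI1-2531, and 1.52 and 2.41 for shEVI1-2532.

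*CAMP* had 151 counts in NTC at both days, 176 and 184 with shEVI1-2531, and 488 and 359 with shEVI1-2532. The groups did not overlap in counts, but those of shEVI1-2531 were close to NTC. The ratio was 4.64-fold at day 3 and 3.28-fold at day 6 for shEVI1-2532, and 1.65-fold and 1.31-fold for shEVI1-2531.

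*CRISP3* had its counts almost wholly with shEVI1-2531. It had 2 counts in NTC at each day, 39 and 48 with shEVI1-2531, and 4 and 3 with shEVI1-2532. Both shEVI1-2531 libraries stood apart from the other 14 of the series, which held 0 to 4 counts. The log2 ratio to NTC had a 95% counting interval of 2.84 to 7.89 at day 3 and of 2.76 to 7.77 at day 6, with 2 counts in each NTC library.

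Of the other scarce members, *LTF* had 6 and 0 counts in NTC at day 3 and day 6, 0 and 5 with shEVI1-2531, and 13 and 13 with shEVI1-2532. *PGLYRP1* had 11 and 5 counts in NTC, 3 and 1 with shEVI1-2531, and 8 and 24 with shEVI1-2532. The groups of *LTF* overlap for NTC and shEVI1-2531 only, and for *PGLYRP1* the higher level with shEVI1-2532 was present at day 6 and not at day 3. *CEACAM8* had 1 and 0 counts in NTC, 4 and 7 with shEVI1-2531, and 11 and 8 with shEVI1-2532, so that the shRNA libraries were above NTC without overlap at counts too low for the fit. Its opposite-strand partner *LIPE-AS1* had 241 and 126 counts in NTC, 244 and 207 with shEVI1-2531, and 359 and 271 with shEVI1-2532. *LCN2* was detected only in NTC, at 1 and 4 counts, and *MMP8* only with shEVI1-2531 at day 6, at 3 counts. *OLFM4* was at 0 in all 6 libraries, which allows levels of up to 0.0249 to 0.0314 CPM.

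With at least 10 counts in 1 library of the pair, 5 members could be compared with NTC for shEVI1-2531 at day 3 and 4 at day 6, and 6 and 5 for shEVI1-2532. More than 2-fold above NTC were 2 of 5 and 2 of 4 with shEVI1-2531, *MMP9* and *CRISP3*, and 5 of 6 and 5 of 5 with shEVI1-2532. Several of these members reached 10 counts only in the library where they were high. Among all genes with enough counts the share was 7.73% and 7.58% for shEVI1-2531 at day 3 and day 6, and 14.2% and 14.4% for shEVI1-2532. With shEVI1-2532 *MMP9*, *BPI*, *CAMP* and *LTF* were past 2-fold at both days, *CEACAM8* at day 3 and *PGLYRP1* at day 6. *LTF* with shEVI1-2532 at day 6 was 5.98-fold above a level of 3 counts in its NTC library, with counting error left out. The counting interval of its log2 ratio to NTC began at 2.07 and had no upper limit. *PGLYRP1* was the only member more than 2-fold lower, with shEVI1-2531 at day 3, where 3 against 11 counts leave a log2 interval of -3.85 to 0.55.

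The knockdown fit took 6 members with at least 10 counts in 2 of 6 libraries, of which *CRISP3* entered only through the shEVI1-2531 libraries, *LTF* only through those of shEVI1-2532, and *PGLYRP1* through 1 library of NTC and 1 of shEVI1-2532. With shEVI1-2532, *MMP9* was higher by 5.98 ± 0.33 (standard error) on the log2 scale (adjusted p = 1.9e-07, edgeR), *BPI* by 1.93 ± 0.21 (adjusted p = 2.36e-05, edgeR) and *CAMP* by 1.96 ± 0.25 (adjusted p = 7.28e-05, edgeR). *PGLYRP1* and *CRISP3* did not pass (adjusted p = 0.168 and 0.287, edgeR), and 21.2% of all genes were called higher. *LTF* stood at 2.58 ± 1.09, given as a description, since the filter admitted it through the group in which it was high. When single libraries were left out, the value of *LTF* ran from 1.28 to 7.19 and that of *PGLYRP1* from 0.56 to 2.82. The value of *MMP9* was 5.22 without the day 3 library of shEVI1-2532 and 6.62 without that of day 6, and it passed both times. With shEVI1-2531, *MMP9* was higher by 2.97 ± 0.29 (adjusted p = 5.58e-05, edgeR), where 9.49% of all genes were called higher. *CRISP3* stood at 4.64 ± 0.66, given as a description, since the filter admitted it through the group in which it was high. Without a filter on low counts, where 6.43% of all genes were called higher, it was called at 4.64 as well. *BPI* at -0.01 ± 0.21, *CAMP* at 0.55 ± 0.25 (adjusted p = 0.155, edgeR), *LTF* and *PGLYRP1* did not pass. Without either shEVI1-2531 library *CRISP3* had too few counts to enter the fit, and DESeq2 gave it no adjusted p there.

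The shRNAs, which lowered *EVI1* to different levels, were then compared with each other. *MMP9* was higher with shEVI1-2532 than with shEVI1-2531 by 3.01 ± 0.29 on the log2 scale (adjusted p = 4.12e-05, edgeR), *BPI* by 1.95 ± 0.21 (adjusted p = 9.21e-05, edgeR) and *CAMP* by 1.41 ± 0.25 (adjusted p = 0.00162, edgeR). *PGLYRP1* stood at 3.09 ± 0.97, given as a description, since of both constructs only shEVI1-2532 reached 10 counts. Its value was 2.07 without shEVI1-2531 at day 6. It was 4.34 and 4.42 without the day 3 library of shEVI1-2531 or of shEVI1-2532. *CRISP3* went the other way, at -3.40 ± 0.61, again a description because of how it entered the fit. *LTF*, which entered only through the shEVI1-2532 libraries, stood at 2.54 ± 1.13, also a description. Its value ran from 1.31 to 7.38 when single libraries were left out. Among all genes 12.2% were called higher and 12% lower. For *MMP9* the difference was 2.26 without shEVI1-2532 at day 3 and 3.66 without it at day 6.

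Other genes of the granule program, listed by name, were read in the same fits. Of all genes tested, 10% were called higher in the change with time, 21.2% with shEVI1-2532 and 9.49% with shEVI1-2531. Called lower were 1691 of 17218, 3706 of 18606 and 1470 of 18606 genes. These shares stand beside the counts of each list below. Of 16 other specific and gelatinase granule genes, 14 could be tested. The change of the PARPi effect with time was called higher for 11 and lower for 1 of them, with a median of 0.92 per doubling of time beside -0.01 over all genes tested. The smallest p-values belonged to *ORM1*, *CHI3L1*, *MMP25* and *HP*, whose slopes were 1.84, 1.47, 1.24 and 1.12. With shEVI1-2532, 13 of 14 were called higher, with a median log2 fold change of 2.55, led by the haptoglobin gene *HP* at 4.20, the protease inhibitor gene *SLPI* at 4.05 and *ORM1* at 3.90. With shEVI1-2531, 11 of 14 were called higher with a median of 1.38. In the mean PARPi effect 0 of 14 were called, as were 0 with olaparib or talazoparib alone, with medians of 1.06, 0.88 and 1.19. Of all genes, 3.16%, 0.639% and 3% were called higher there. *CD177* was under 10 counts in each library.

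The primary granule genes were mixed. For the change of the PARPi effect with time 3 of 11 were called higher and 2 lower. *SRGN*, the proteoglycan core of granules, had a slope of 1.04, and *MPO* and *ELANE*, which encode myeloperoxidase and neutrophil elastase, had slopes of -0.86 and -0.60. With shEVI1-2532, 7 of 11 were called higher and 2 lower, and with shEVI1-2531 3 and 2. *ELANE* differed by direction, at 3.05 with shEVI1-2532 and -2.81 with shEVI1-2531, a difference of 5.86 (adjusted p = 2.78e-07, edgeR).

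Of 9 transcription factors of granulopoiesis, 5 were called higher in the change with time and 0 lower, 6 and 0 with shEVI1-2532, and 4 and 1 with shEVI1-2531. *CEBPE*, which drives the specific granule stage, had a slope of 1.04 (adjusted p = 5.45e-12, edgeR) and was higher by 0.70 with shEVI1-2532 (adjusted p = 0.0331, edgeR). With shEVI1-2531 it stood at 0.71 but did not pass (adjusted p = 0.061, edgeR). *CEBPA* was higher by 0.97 and 1.11 with shEVI1-2532 and shEVI1-2531, and both passed. *GFI1*, a repressor needed for neutrophil fate, was called in none of the 7 comparisons, with log2 values from -0.46 to 0.06.

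Genes of the mature neutrophil surface were called higher in 8 of 10 for the change with time, 9 of 11 with shEVI1-2532 and 8 of 11 with shEVI1-2531, and none lower. In the mean PARPi effect 3 of 10 were called, beside 3.16% of all genes called higher. They were the granulocyte adhesion genes *CEACAM3* and *CEACAM6* and the chemokine receptor gene *CXCR2*, at 3.51, 1.80 and 1.17. Over the 16 libraries *CEACAM3* had 2 to 51 counts, under 10 in 8 of them, and *CEACAM6* had 4 to 91, under 10 in 3. The values of *CEACAM3* and *CEACAM6* thus rest on low counts. The formyl peptide receptor gene *FPR1* and the integrin gene *ITGAM* had the smallest p-values for the change with time, with slopes of 1.80 and 1.11. Among 9 immature progenitor markers, 6 were called lower and 0 higher in the change with time. With shEVI1-2532 it was 8 and 0, and with shEVI1-2531 8 and 1. Of all genes tested, 1691 of 17218, 3706 of 18606 and 1470 of 18606 were called lower in these comparisons. *MECOM* had a slope of -0.94 and log2 fold changes of -3.04 with shEVI1-2532 and -1.34 with shEVI1-2531.

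**Figure D4:**
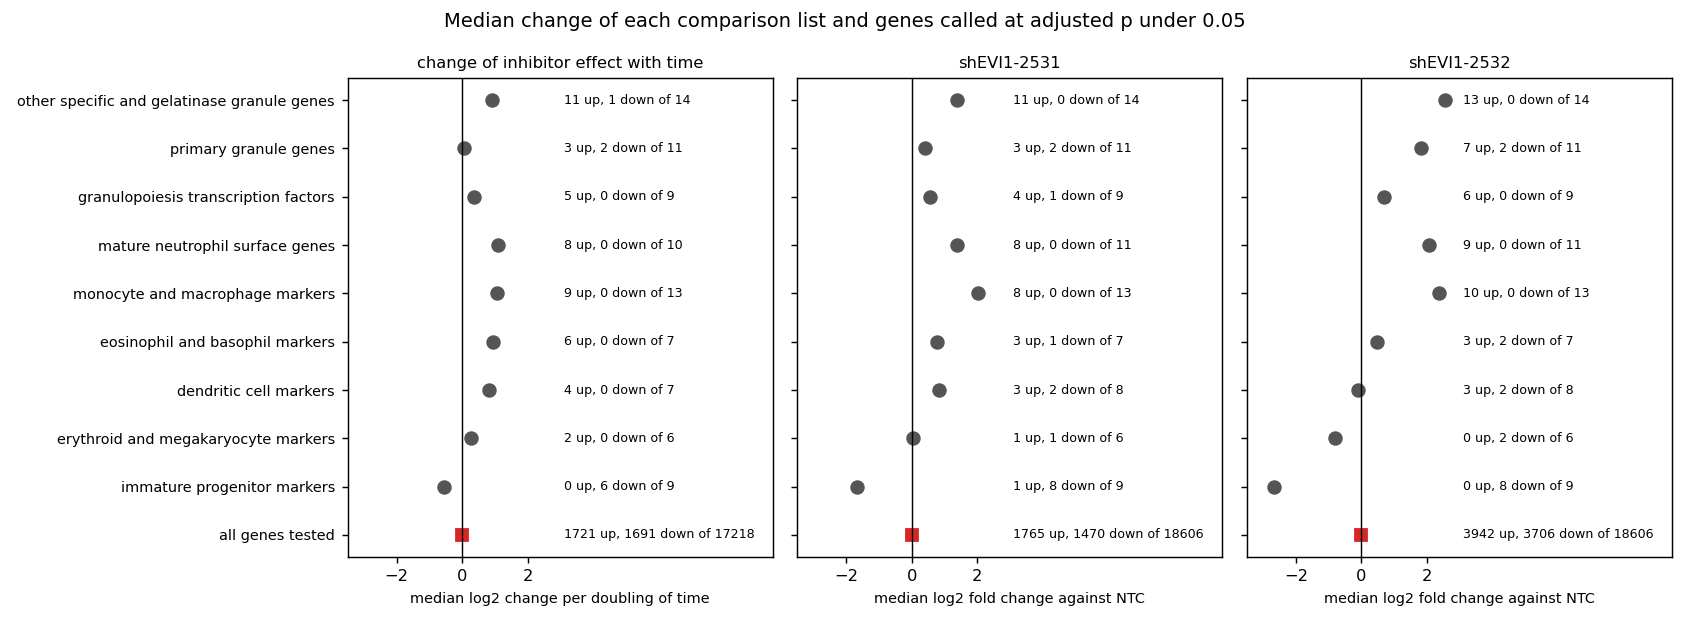
Median of the fitted log2 values of the comparison lists (dots) and of all genes tested (square) for the change of the PARPi effect per doubling of time, shEVI1-2531 and shEVI1-2532, with the number of genes called up and down of those tested. The medians of the other specific and gelatinase granule genes lie at 0.92, 1.38 and 2.55, near those of the mature neutrophil surface genes and the monocyte markers. For the change with time those of the eosinophil and basophil and of the dendritic cell markers lie near as well. The immature progenitor markers lie below 0.

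Markers of other cell types moved with the granule genes to an extent that differed between comparisons. For the change with time, the median per doubling was 1.06 for monocyte and macrophage markers and 0.96 for eosinophil and basophil markers. It was 0.82 for dendritic cell markers and 0.27 for erythroid and megakaryocyte markers, beside 0.92 for the other specific and gelatinase granule genes. With shEVI1-2532 the median log2 fold change was 2.37 for monocyte and macrophage markers and 0.49 for eosinophil and basophil markers. It was -0.10 for dendritic cell markers and -0.80 for erythroid and megakaryocyte markers. Of all genes tested, 10% were called higher in the change with time, 21.2% with shEVI1-2532 and 9.49% with shEVI1-2531. Of 13 monocyte and macrophage markers tested, 9 were called higher in the change with time, 10 with shEVI1-2532 and 8 with shEVI1-2531, and none lower. Their summed level was 1294 to 1762 CPM with DMSO, 1525 to 9167 with olaparib and 1532 to 14320 with talazoparib. It was 1640 to 1865 CPM with NTC, 2901 to 3058 with shEVI1-2531 and 9019 to 9337 with shEVI1-2532. The most abundant genes weigh most in these sums. Over the 16 libraries *S100A9* reached 6907 CPM, *LYZ* 5230 and *S100A8* 3232, and the next highest gene of the list, *MRC1*, reached 352. *CD14*, the lipopolysaccharide co-receptor of monocytes, had a slope of 2.12 and was higher by 4.60 with shEVI1-2531 and 5.14 with shEVI1-2532. *CTSL* and *MS4A6A* were under 10 counts in each library. Eosinophil and basophil markers were called higher in 6 of 7 for the change with time, from summed levels of 786 to 1070 CPM with DMSO to 832 to 4087 with olaparib and 866 to 5571 with talazoparib. With shEVI1-2532 3 of 7 were higher and 2 lower, and with shEVI1-2531 3 and 1, at 1640 to 2000 CPM with NTC, 2173 to 4416 with shEVI1-2531 and 2004 to 2443 with shEVI1-2532. Of these genes *CLC* weighs most in the sums, at 643 to 5170 CPM over the 16 libraries. The next highest, *PRG3*, reached 276 CPM. The basophil and mast cell genes *CPA3* and *MS4A2* were under 10 counts throughout.

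Dendritic cell markers were called higher in 4 of 7 for the change with time, 3 of 8 with either shRNA, and lower in 0, 2 and 2. Their sum was 15.7 to 34.5 CPM with DMSO, 26.5 to 83.3 with olaparib and 29.4 to 66.0 with talazoparib, and 23.4 to 36.2 with NTC, 35.6 to 46.7 with shEVI1-2531 and 26.8 to 62.6 with shEVI1-2532. Erythroid and megakaryocyte markers were called higher in 2 of 6, 1 of 6 with shEVI1-2531 and 0 of 6 with shEVI1-2532, and lower in 0, 1 and 2. They summed to 92.8 to 114 CPM with DMSO, 130 to 222 with olaparib, 147 to 241 with talazoparib, 87.6 to 197 with NTC, 119 to 157 with shEVI1-2531 and 36.9 to 64.1 with shEVI1-2532, and *HBA1*, *HBG1* and *PF4* stayed under 10 counts. The part of these cell types in the members' levels was not tested, and more cells of a type cannot be told apart from more RNA per cell in bulk libraries.

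The DMSO libraries also differed from the untreated library, beyond counting error for *BPI* and *MMP9* at each hour and for *PGLYRP1* at 12 and 24 h. Each comparison is of 2 single libraries, and 6 of the 10 members had too few counts in each pair. Relative to untreated cells, *BPI* was at 57.7%, 61.3% and 92.8% with DMSO at 12, 24 and 48 h, and *MMP9* at 78.2%, 67.3% and 42.7%. *CAMP* stood at 69.9%, 65.7% and 118% at 12, 24 and 48 h, and the 3 intervals included no change. *PGLYRP1* had 15 counts in untreated cells and 0, 4 and 5 with DMSO at 12, 24 and 48 h. Its log2 interval lay below -1.82 at 12 h. It ran from -4.09 to -0.39 at 24 h and from -3.33 to 0.02 at 48 h. The 12 h inhibitor libraries fell within the range of the DMSO libraries for *BPI*, and for *CAMP* the talazoparib library did.

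The genes most alike the 3 abundant members were read from log2 CPM over the 16 libraries. The search covered 8991 genes whose log2 CPM averaged more than 3. *BPI* was most like *C19orf38* (r = 0.961), *DPEP2* (0.955) and *CSF3R*, the G-CSF receptor gene (0.952). *MMP9* was most like *LRRC25* (r = 0.965), the lysosomal gene *PSAP* (0.964) and the properdin gene *CFP* (0.959). *CAMP* was most like *GSTK1* (r = 0.962), *PCED1B-AS1* (0.960) and *C19orf38* (0.957). These correlations describe libraries that share controls and experiments and were not tested.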

How the data were processed

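The authors deposited, for each of 16 RNA-Seq libraries, raw counts per gene and TPM. Per the labels, libraries were prepared with a stranded mRNA kit from total RNA, and the submitters' processing notes name STAR, Picard, featureCounts and hg38/GRCh38. The deposited TPM follow from the counts over whole gene spans, introns included, and served only as a check.

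CPM were computed from the raw counts and library totals. Genes with at least 10 counts in 3 of 9 PARPi or 2 of 6 knockdown libraries were fitted with edgeR 4.0.16 (TMM, quasi-likelihood test, Benjamini-Hochberg over all genes, threshold 0.05) in R 4.3.3. Covariates were the hour or day, with 4 and 2 residual degrees of freedom. No RNA-Seq test design is given in the methods text used here. Single-library ratios carry exact 95% binomial intervals that cover counting error only and were given where 1 library of the pair had at least 10 counts. Tests were checked on simulated data, with log2 changes of 2 in well covered genes and effects that followed the fitted model. The check did not cover departures from that model, which set the spread here, or scarce genes.

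All 10 members are named. Of other lists, at most 4 genes with the smallest p per comparison are named, plus *CD14*, *CEBPE*, *CEBPA*, *GFI1* and *MECOM*. *CD33*, *MPO*, *HBB* and *CD3E* served to check the line. *S100A8*, *S100A9*, *LYZ*, *MRC1*, *CLC* and *PRG3* are named for their level within a list. Some marker genes examined are not reported here. Members, lists and tests were chosen with earlier results of these data known. Nothing in the labels says that libraries came from separate cultures.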

Additional observations from a re-analysis of the deposited data

Results flagged for a closer look

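Results were singled out where an effect differed between the shRNAs or between hours, as tested in the fits with edgeR. Between the shRNAs, the log2 difference of shEVI1-2532 from shEVI1-2531 was 3.01 for *MMP9*, 1.95 for *BPI*, 1.41 for *CAMP*, 3.09 for *PGLYRP1* and -3.40 for *CRISP3*. It was in the same direction at both days for each of these 5 genes. The level of *EVI1* (*MECOM*) also differed between the shRNAs, at 12.3 and 18.5 CPM with shEVI1-2531 and 4.51 and 4.03 CPM with shEVI1-2532, and its part in these differences was not tested. *CRISP3* entered the fit only through the shEVI1-2531 libraries, so its value is a description, and it rests on 39 and 48 counts with shEVI1-2531. *PGLYRP1* reached 10 counts with shEVI1-2532 and not with shEVI1-2531, so its value is a description too. It rests on 24 counts or fewer.

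Between hours, the inhibitor effect changed per doubling of time by 1.89 for *MMP9*, 0.67 for *BPI* and 1.21 for *CAMP* on the log2 scale, with the ratio to DMSO at 48 h above that at 12 h for both inhibitors.

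No group held enough libraries for a test of outlying samples.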

How the results depend on the processing

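The number of members called for the mean PARPi effect was 0 and became 3 with DESeq2, 4 without a filter on low counts, and 0 to 3 when single hours were left out. The share of all genes called higher moved with it, from 3.16% to 10.7%, 6.18% and 0% to 12.4%. For olaparib it was 0, with 2 without a filter and 0 to 2 when hours were left out (0.639% of all genes called higher, 2.56%, and 0% to 5.09%). For talazoparib it was 1, with 3 by DESeq2, 4 without a filter, 0 with library totals only, 0 at an adjusted p under 0.01, 0 with only talazoparib and DMSO, and 0 to 3 when hours were left out, beside 3% of all genes called higher and 11.4%, 6.47%, 0.941%, 0.0523%, 0.024% and 0% to 13% in these settings. For shEVI1-2532 it was 3, and 0 with both shRNAs as 1 group, where 0.849% of all genes were called higher rather than 21.2%. For shEVI1-2531 *MMP9* was called in the main run and by DESeq2, beside 9.49% and 10% of all genes called higher. *CRISP3* is not counted, since the filter admitted it through the group in which it was high. DESeq2 gave it no adjusted p. The causes of these changes were not tested. The counts for the change with time and for the difference between shRNAs kept within 1.5 times their value in each alternative run. The latter include members whose values are descriptions.

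With shEVI1-2531 the uncalled value of *LTF* was -0.10 with library totals only and ran from -4.70 to 4.53 over the libraries left out, and that of *BPI* was 0.012 with only NTC and shEVI1-2531 and ran from -0.45 to 0.46. Library totals in place of TMM moved the median log2 fold change of all genes to -0.30 for shEVI1-2532, -0.16 for shEVI1-2531, -0.12 for the change with time, -0.11 between shRNAs and -0.10 for talazoparib. They changed the split of all genes called higher and lower from 3942 and 3706 to 2360 and 5957 for shEVI1-2532, from 1765 and 1470 to 1049 and 2270 for shEVI1-2531, from 1721 and 1691 to 1091 and 2424 for the change with time, and from 2271 and 2234 to 1524 and 3000 between shRNAs. For talazoparib it went from 516 and 172 to 162 and 17. They moved 18 of 67 single-library ratios beyond their counting intervals and reversed 0. *BPI*, *MMP9* and *CAMP* kept their shEVI1-2532 calls in all settings except both shRNAs as 1 group. Between shRNAs, the value of *PGLYRP1* is a description. This gene did not pass with DESeq2, with library totals (2.95) or at an adjusted p under 0.01. It missed the filter without NTC at day 3 or without shEVI1-2532 at day 6.

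The change with time was not run with hours left out, as no residual degrees of freedom would remain. No paired analysis was possible because the libraries carry no replicate numbers, and the fits already match libraries by hour or day. Depth limits the 7 scarce members, for which 3 counts are the smallest level a library can show.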
